A study of Rattus norvegicus with 22 samples.

Results

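Matrix proteases and their inhibitors were followed in rat hippocampus after traumatic brain injury (TBI). The set was a list of 9 named genes of related function, chosen with earlier results of these data known. It held 5 matrix metalloproteases (Mmp2, Mmp3, Mmp9, Mmp12 and Mmp14), the secreted metalloprotease Adamts1, the plasminogen activator Plau with its receptor Plaur, and the metalloprotease inhibitor Timp1. They were 9 of 17172 genes in the count table. Of the table, 12875 genes had enough counts to be tested, and 8 of the 9 were among them. Mmp3 was too low to be tested, and Mmp12 and Plaur were kept only through their counts in injured rats.

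The animals were adult male Sprague-Dawley rats given moderate lateral fluid percussion, a pressure pulse onto the exposed dura on the right side, or the same surgery and anesthesia without the pulse (sham). RNA was sequenced from bulk hippocampus of the injured side in 2 sham rats and 4 TBI rats at day 1 and in 4 sham rats and 4 TBI rats at day 14. All sham rats had a craniectomy, so the baseline was an operated and not an untouched brain, and all rats were male.

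Matrix metalloproteases are zinc enzymes that cut the proteins between cells, among them the collagen and laminin of the basal lamina around brain vessels. Most are made as inactive precursors and are opened by other proteases, including plasmin, the product of plasminogen activators. Tissue inhibitors of metalloproteases, such as TIMP1, bind the active enzymes and block them, and injured brain is known for induction of both sides of this balance.

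Every rat yielded between 15065540 and 23743703 counted reads. Levels are given as CPM, the read count of a gene scaled to the size of its library after TMM adjustment (factors 0.91 to 1.12). CPM depends on transcript length, so values were compared between rats and not between genes. Hippocampal neurons and their subfields were followed by 5 marker genes (Prox1, Zbtb20, Neurod6, Wfs1 and Calb1). Their summed CPM was 883 to 991 in sham rats and 232 to 946 in TBI rats at day 1. At day 14 it was 813 to 909 in sham rats and 839 to 1197 in TBI rats. These markers were thus read in every library, but no other brain region was there to compare with. Of the 14 libraries, 3 stood apart: summed CPM of 18 choroid plexus markers was 11368 in sham day 1 replicate 1, 2113 in TBI day 14 replicate 2 and 8851 in TBI day 14 replicate 3, against 127 to 249 in the other libraries. Otx2 was at 0 in every library, while transthyretin (Ttr) made up most of the sum in these 3. TBI day 1 replicate 1 differed from the other TBI rats of that day in other markers: its summed CPM was 3493 for neuron markers (others 6436 to 7309), 232 for the hippocampal markers (others 580 to 946) and 16088 for oligodendrocyte markers (others 4515 to 9516). Without it the number of members called at day 1 was 6, as with it. Mmp2 and Mmp14 results that rest on the choroid plexus libraries are given with and without them.

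At day 1, 6 of the 8 tested genes rose after injury by edgeR's quasi-likelihood test at an adjusted p under 0.05: Timp1, Plaur, Plau, Adamts1, Mmp9 and Mmp12. Across all tested genes 11.2% rose in the same comparison. At day 14, 5 of the 8 rose: Plaur, Plau, Timp1, Mmp2 and Mmp12, beside 4.07% of all tested genes. Both counts include Mmp12 and Plaur, which entered the tested set only through TBI rats, so a fall could hardly be called for them. Without them the genes called were Timp1, Plau, Adamts1 and Mmp9 at day 1 and Plau, Timp1 and Mmp2 at day 14. Since the genes were chosen with earlier results of these data known, the shares beside them are no test of the set. The day 14 count was 2 without sham day 14 replicate 3 and 3 without any other sham rat of day 14 or without TBI day 14 replicate 4. The median log2 fold change of the 8 was 2.75 at day 1 and 1.62 at day 14, beside −0.02 and −0.03 over all tested genes. Both medians include Mmp12 and Plaur. They were the same when Mmp12, which had no counts in any sham rat, was set at its lower bound. That check could not move them, since the bound also lay above the middle values. The other tested genes ran from −1.02 (Mmp2) to 6.31 (Timp1) at day 1 and from −0.59 (Mmp9) to 2.52 (Plau) at day 14. The plot of CPM by rat shows each of the 9 genes.

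**Figure D1:**
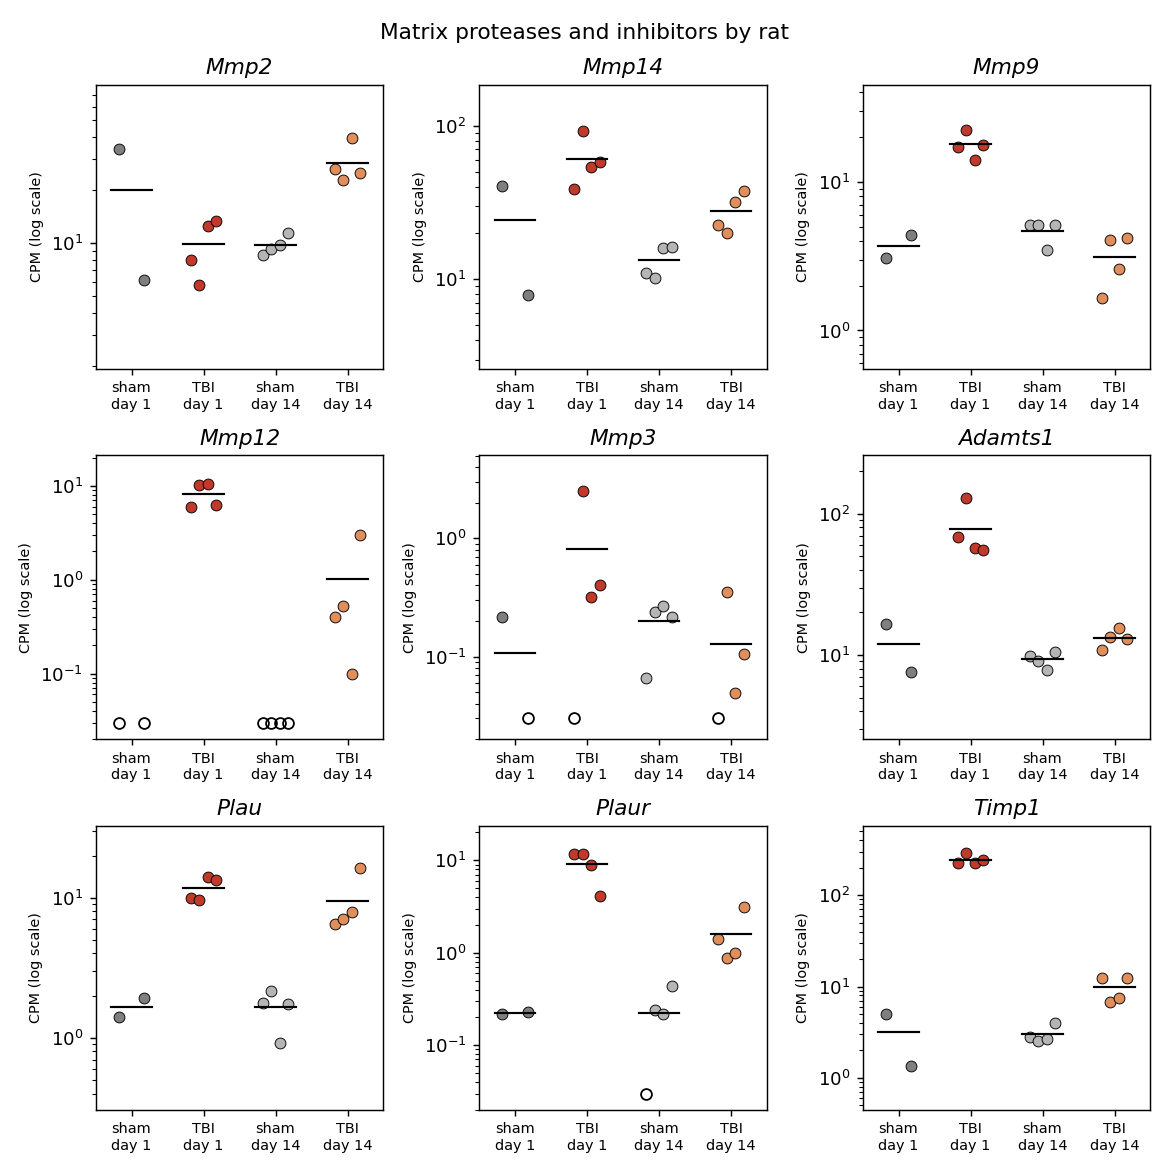
CPM (read count scaled to TMM-adjusted library size, log scale) of the 9 genes in each of the 14 rats, by group. Filled points are rats, bars are group means, and open circles at the foot of a panel are rats with 0 counts, whose level cannot be drawn on a log scale. Timp1 lay between 224 and 288 in TBI rats at day 1, above all other rats, while Plau lay at 6.50 or more in all 8 TBI rats and at 2.16 or less in all 6 sham rats.

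Promoter sequences are shown for 4 of the genes. Mmp3 and Mmp12 lie on 1 chromosome with similarly placed short elements, and Plaur carries the same element. Timp1, with the largest day 1 fold among genes with reads in sham rats, has no exact match to it. The RefSeq promoter set used here, on the rat assembly GRCr8, had entries for 6 of the 9 genes, and none was matched for Mmp2, Mmp9 and Mmp14. The 250 bases before the start are printed 5′ to 3′ in the direction of the gene: Mmp12 at chr8:12866402-12866651 (plus strand), Mmp3 at chr8:12925031-12925280 (plus strand), Plaur at chr1:89181113-89181362 (plus strand) and Timp1 at chrX:3771123-3771372 (minus strand). Capitals mark the letters TGANTCA, a core bound by AP-1 factors such as Fos and Jun. Only exact matches were searched, and the Timp1 sequence holds tgagtaa, which is 1 base away from these letters.
Mmp12: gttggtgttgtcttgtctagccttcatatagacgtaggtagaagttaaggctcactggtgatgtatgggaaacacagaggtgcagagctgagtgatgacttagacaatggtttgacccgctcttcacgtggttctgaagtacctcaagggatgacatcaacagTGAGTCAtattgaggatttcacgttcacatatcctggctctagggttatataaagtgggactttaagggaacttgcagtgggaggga
Mmp3: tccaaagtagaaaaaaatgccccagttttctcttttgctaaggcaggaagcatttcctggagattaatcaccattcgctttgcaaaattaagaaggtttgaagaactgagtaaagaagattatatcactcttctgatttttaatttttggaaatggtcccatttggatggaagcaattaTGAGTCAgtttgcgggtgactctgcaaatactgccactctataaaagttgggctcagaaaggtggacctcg
Plaur: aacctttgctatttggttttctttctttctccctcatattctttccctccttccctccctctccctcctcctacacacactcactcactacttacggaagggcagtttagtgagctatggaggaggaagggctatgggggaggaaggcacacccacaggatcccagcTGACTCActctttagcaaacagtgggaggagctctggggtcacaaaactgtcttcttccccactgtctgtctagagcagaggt
Timp1: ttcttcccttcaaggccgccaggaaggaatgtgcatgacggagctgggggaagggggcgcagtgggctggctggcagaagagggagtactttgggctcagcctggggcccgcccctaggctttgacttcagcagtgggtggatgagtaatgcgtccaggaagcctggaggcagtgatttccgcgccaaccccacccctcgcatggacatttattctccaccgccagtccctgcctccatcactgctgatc
The capitals began 87 bases before the start of Mmp12, 71 before that of Mmp3 and 83 before that of Plaur. A TATA box (TATAAA) began 39 bases before the start in Mmp12, 32 before it in Mmp3 and 70 before it in Adamts1. Both strands were searched over windows reaching 50 bases past the start. TGANTCA was found in 3 of 6 windows of these genes and in 7.33% of 33469 rat promoters, and TATAAA in 3 of 6 and 14.2%. The windows of the 6 genes held neither a STAT element (TTCNNNGAA, in 8.87% of promoters) nor an NF-kB element (GGGANNNNCC, in 19.3%). TGANTCA reads as the same element on both strands, and no match of 1 motif overlapped that of another here. A match of letters is a description of the window and not a site of binding.

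Timp1 encodes a secreted inhibitor of metalloproteases. Its CPM was 4.96 and 1.34 in sham rats at day 1 and 224, 288, 228 and 246 in TBI rats at day 1. In sham rats at day 14 it was 2.82, 2.52, 2.65 and 4.03, and in TBI rats at day 14 it was 12.4, 6.80, 7.40 and 12.5. All 8 TBI rats were above all 6 sham rats, and the TBI groups of the 2 days did not overlap either. The log2 fold change was 6.31 (SE 0.48, adjusted p 2.46e-06) at day 1, an increase of 79.4-fold with a 95% interval of 39.2 to 160.5. At day 14 it was 1.69 (SE 0.31, adjusted p 0.00389), or 3.24-fold. The effect at day 1 exceeded that at day 14 by 4.62 on the log2 scale (SE 0.52, adjusted p 0.00041), and the mean in TBI rats at day 14 was 3.97% of that at day 1. Timp1 was called at both days in all 24 alternative analyses.

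Timp1 overlaps Syn1, a neuronal synapsin gene, in the rat annotation, and the strand setting used for counting was not given in the sources used here. Syn1 itself was lower by 0.45 on the log2 scale in TBI rats at day 1 (adjusted p 0.0651) and differed by 0.03 at day 14 (adjusted p 0.971). Plau likewise overlaps a long non-coding RNA (LOC120096900), and reads of the pair could not be told apart without strand.

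Plau encodes urokinase, the protease that turns plasminogen into plasmin at the cell surface. Its CPM was 1.40 and 1.94 in sham rats and 9.91, 9.70, 14.2 and 13.3 in TBI rats at day 1. Its day 14 values were 1.77, 2.16, 0.92 and 1.74 in sham rats and 6.50, 7.03, 7.95 and 16.3 in TBI rats. Sham and TBI rats were separate at both days, whereas the TBI groups of the 2 days overlapped. The log2 fold change was 2.81 (SE 0.43, adjusted p 0.00049) at day 1 and 2.52 (SE 0.33, adjusted p 0.00023) at day 14. These effects differed by 0.29 with a 95% interval of −0.80 to 1.38 (adjusted p 0.792), an interval that allows up to 2.60-fold between the days. TBI rats at day 14 retained 80.2% of the day 1 mean, and their log2 difference from TBI rats at day 1 was −0.32 (adjusted p 0.416). Plau was called at both days in all 24 alternative analyses.

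Plaur encodes the receptor that holds urokinase at the membrane. Its CPM was 0.22 and 0.23 in sham rats at day 1, from 4 and 5 reads, and 11.8, 11.6, 8.94 and 4.07 in TBI rats. The day 14 values were 0, 0.24, 0.22 and 0.44 in sham rats, from 0 to 8 reads, and 1.39, 0.88, 0.99 and 3.11 in TBI rats. The groups did not overlap at either day, and the lowest TBI rat of day 1 lay above the highest of day 14. Plaur rose by 5.31 on the log2 scale at day 1 (SE 0.80, adjusted p 0.00042) and by 2.76 at day 14 (SE 0.61, adjusted p 0.0140). The day 1 effect was larger by 2.54 (95% interval 0.33 to 4.75), a difference that missed the threshold after adjustment (adjusted p 0.191). Within TBI rats the level at day 14 was lower than at day 1 by a log2 difference of −2.50 (SE 0.48, adjusted p 0.00094). The day 14 call of Plaur was lost with limma-voom (2.96, adjusted p 0.139), without TBI day 14 replicate 4 (2.20, adjusted p 0.0619) and without sham day 14 replicate 3 (adjusted p 0.0509).

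Receptor and activator thus had different values at day 14: Plaur in TBI rats kept 17.5% of its day 1 mean and Plau 80.2%. The difference between these shares was not tested.

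Adamts1 encodes a secreted metalloprotease that cuts proteoglycans such as versican and aggrecan. Its CPM was 16.5 and 7.61 in sham rats and 68.3, 129, 56.8 and 55.3 in TBI rats at day 1. By day 14 it was 9.90, 9.07, 7.79 and 10.6 in sham rats and 10.9, 13.4, 15.7 and 13.0 in TBI rats. Every TBI rat was above every sham rat of its day, narrowly so at day 14. Adamts1 rose by 2.69 on the log2 scale at day 1 (SE 0.38, adjusted p 0.00024), or 6.44-fold. At day 14 its log2 fold change was 0.51 with a 95% interval of −0.09 to 1.10 (adjusted p 0.510), and it passed in a fit of only the groups compared (0.54, adjusted p 0.0399). The effects differed by 2.18 (SE 0.45, adjusted p 0.0164). Without sham day 1 replicate 2 that difference was 1.72 and missed the threshold (adjusted p 0.0769).

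Mmp9 encodes gelatinase B, which degrades basal lamina collagen and is stored in granules of neutrophils. Its CPM was 3.07 and 4.38 in sham rats and 17.1, 22.4, 14.1 and 17.7 in TBI rats at day 1. In the rats of day 14 it was 5.11, 5.11, 3.46 and 5.12 in sham rats and 1.66, 4.04, 2.58 and 4.17 in TBI rats. The groups were separate at day 1 and overlapped at day 14, when 3 of the 4 sham rats lay above all TBI rats. Mmp9 rose by 2.25 on the log2 scale at day 1 (SE 0.35, adjusted p 0.0005), or 4.77-fold. At day 14 its log2 fold change was −0.59 (95% interval −1.16 to −0.01, adjusted p 0.359). The effects of the 2 days differed by 2.84 (SE 0.43, adjusted p 0.00335).

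Of 10 listed neutrophil markers, some rose with Mmp9 at day 1. Summed CPM of the 10 markers was 4.38 to 10.1 in sham rats and 29.5 to 77.8 in TBI rats at day 1, and 5.57 to 7.62 in sham rats and 15.6 to 26.7 in TBI rats at day 14. The receptor gene Csf3r, which microglia also express, made up most of the sum in sham rats and in TBI rats at day 14. It had 285, 261, 281 and 490 reads in those TBI rats, and 316, 758, 696 and 408 in TBI rats at day 1. Of the 5 markers with enough counts to be tested, 4 rose at day 1 and 1, Csf3r, at day 14. S100a8, S100a9, Cxcr2 and Elane had at most 9 reads in any sham rat. The filter could pass them only through TBI rats, so a fall could hardly be called for them. S100a8 had 127, 368, 166 and 75 reads in TBI rats at day 1 against 4 and 4 in sham rats, and at most 5 reads in any rat at day 14. Among granule genes, Elane had 11, 10, 16 and 1 reads in TBI rats at day 1 and 0 in every other rat. Ltf and Retnlg had 0 to 2 reads in every rat. Other granule genes showed no such rise: Mpo had 6 and 3 reads in sham rats and 1, 1, 2 and 2 in TBI rats at day 1. Camp had 7 and 2 against 0, 4, 9 and 0, and Ngp 1 and 7 against 5, 2, 10 and 1. The part of these cells in the Mmp9 level was not tested, and in bulk tissue a change in the number of cells of a type and a change in RNA per cell cannot be told apart.

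Mmp12 encodes macrophage elastase, made mainly by activated macrophages. All 6 sham libraries had 0 reads of it. TBI rats had 116, 251, 230 and 139 reads at day 1, or 6.02, 10.2, 10.5 and 6.22 CPM, and 6, 9, 2 and 57 reads at day 14, or 0.40, 0.53, 0.10 and 3.01 CPM. Mmp12 was therefore seen in every TBI rat, with 1 rat at day 14 carrying most of that group's reads. Against a floor of 3 reads per sham library, the mean was at least 55.0-fold higher at day 1 (adjusted p 0.00369). At day 14 it was at least 5.74-fold higher (adjusted p 0.0324), and at least 1.94-fold higher without TBI day 14 replicate 4. Floors and bounds cover counting error only, since the reads carried no molecular identifiers. Within TBI rats the log2 difference of day 14 from day 1 was −3.01 (SE 0.71, adjusted p 0.00695). The day 1 call was kept in all 24 alternative analyses and the day 14 call in 15 of 23, which was lost with limma-voom, with the replicate block, and without TBI day 1 replicate 3 or any 1 of the 4 sham rats of day 14.

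Mmp3 encodes stromelysin 1, which can activate other metalloproteases. It had 4 and 0 reads in sham rats and 0, 62, 7 and 9 in TBI rats at day 1, and 1, 4, 5 and 4 in sham rats and 0, 6, 1 and 2 in TBI rats at day 14. The single library with 62 reads was TBI day 1 replicate 2, and the groups otherwise overlapped. When no filter was applied the log2 fold change was 2.93 at day 1 (SE 1.45, adjusted p 0.186) and −0.64 at day 14 (adjusted p 0.942), so an injury effect on Mmp3 was not detectable at this depth.

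Mmp14 encodes a membrane-bound metalloprotease that activates the precursor of gelatinase A on the cell surface. Its CPM was 40.6 and 7.84 in sham rats and 38.5, 92.1, 53.4 and 57.8 in TBI rats at day 1. On day 14 it was 11.0, 10.2, 16.0 and 16.3 in sham rats and 22.5, 20.2, 31.9 and 37.3 in TBI rats. The groups overlapped at day 1 only through sham day 1 replicate 1, the library with 11368 CPM of choroid plexus markers, and were separate at day 14. Mmp14 gave a log2 fold change of 1.32 at day 1 (95% interval 0.25 to 2.39, adjusted p 0.0767) and of 1.06 at day 14 (95% interval 0.22 to 1.91, adjusted p 0.205). Without sham day 1 replicate 1 the day 1 value was 2.95 (adjusted p 0.00169), and without replicate 2 it was 0.57 (adjusted p 0.499). Without the 3 choroid plexus libraries the values were 2.93 at day 1 (adjusted p 0.00331) and 1.18 at day 14 (adjusted p 0.0629). Mmp14 passed at day 1 with limma-voom (1.73, adjusted p 0.0231), with DESeq2 (1.32, adjusted p 0.0246) and with the choroid plexus covariate (2.03, adjusted p 0.0245). It passed at day 14 in a fit of only the groups compared (1.10, adjusted p 0.00808) and without either sham rat of day 1 (adjusted p 0.0314 and 0.0316). Against the 4 sham rats of day 14, TBI rats of day 1 were higher by 2.18 (SE 0.40, adjusted p 0.00057).

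Mmp2 encodes gelatinase A, the enzyme that MMP14 activates. Its CPM was 34.2 and 6.18 in sham rats and 7.99, 5.76, 12.6 and 13.3 in TBI rats at day 1. At day 14 it was 8.59, 9.25, 9.74 and 11.4 in sham rats and 26.5, 23.0, 39.8 and 25.2 in TBI rats. TBI rats at day 14 lay above all sham rats of that day, and their highest value was in replicate 3, with 8851 CPM of choroid plexus markers. Mmp2 rose by 1.55 on the log2 scale at day 14 (SE 0.40, adjusted p 0.0360), or 2.93-fold. The call was kept in 13 of 24 alternatives, among them DESeq2 (1.55, adjusted p 0.0016) and a fit of only the groups compared (1.59, adjusted p 0.00016). It was lost with limma-voom (1.53, adjusted p 0.0608) and with all 6 sham rats as 1 baseline (1.11, adjusted p 0.167). Leaving out any 1 sham rat of day 14, or TBI day 14 replicate 1, 3 or 4, also lost it. The rise was 1.42 without the 3 choroid plexus libraries (adjusted p 0.00896) and 1.06 with the choroid plexus score as a covariate (adjusted p 0.105). TBI day 14 replicates 1 and 4, whose choroid plexus markers summed to 210 and 221 CPM, had 26.5 and 25.2 CPM of Mmp2. The part of choroid plexus RNA in the day 14 rise was not tested.

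At day 1 the sign of the Mmp2 difference depended on the sham library used. The log2 fold change was −1.02 (SE 0.46, adjusted p 0.131) with both sham rats, 0.68 without replicate 1 (adjusted p 0.252) and −1.79 without replicate 2 (adjusted p 0.00687). Against sham rats of day 14 it was 0.02 (95% interval −0.82 to 0.86, adjusted p 0.972). The difference between the day 1 and day 14 effects was −2.58 (adjusted p 0.0298) in all rats, −0.76 (adjusted p 0.368) without the 3 libraries and −0.88 (adjusted p 0.261) without sham day 1 replicate 1, and that call was also lost with limma-voom (−2.12, adjusted p 0.101), with the choroid plexus covariate (−1.15, adjusted p 0.298) and without sham day 14 replicate 1, 2 or 4 or TBI day 14 replicate 3. Within TBI rats, Mmp2 was higher at day 14 than at day 1 by 1.53 (SE 0.39, adjusted p 0.00684). The plot against choroid plexus markers shows where these libraries lay.

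**Figure D2:**
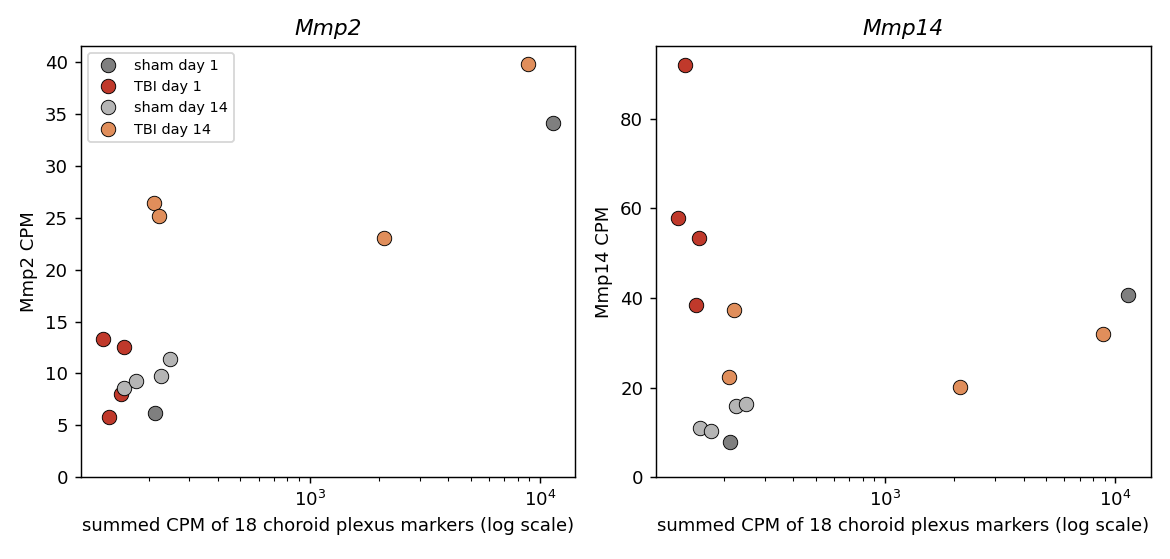
CPM of Mmp2 and Mmp14 (linear axis) against the summed CPM of 18 choroid plexus markers (log scale) in each of the 14 rats, coloured by group. Sham day 1 replicate 1 sits at 11368 on the marker axis with 34.2 CPM of Mmp2 and 40.6 CPM of Mmp14. TBI day 14 replicates 1 and 4 sit near the sham rats of day 14 on the marker axis and above those rats in Mmp2.

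Set side by side, the 2 injury effects separated the genes. Timp1, Mmp9 and Adamts1 had larger effects at day 1 by the test of the difference, and Mmp2 the reverse, which made 4 of 8 genes, beside 3.68% of all tested genes in either direction. For Mmp2 the call was kept in 13 of 22 alternatives, and the difference shrank from −2.58 to −0.88 without sham day 1 replicate 1. For Mmp12 the test of the difference could not be made, since both sham groups were at 0. In TBI rats alone, 6 of the 8 genes were lower at day 14 than at day 1 (Timp1, Mmp12, Adamts1, Mmp9, Plaur and Mmp14), beside 21.9% of all tested genes, and Mmp2 was higher, beside 17.6%. Plau did not pass in either direction. These comparisons share the same TBI rats.

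**Figure D3:**
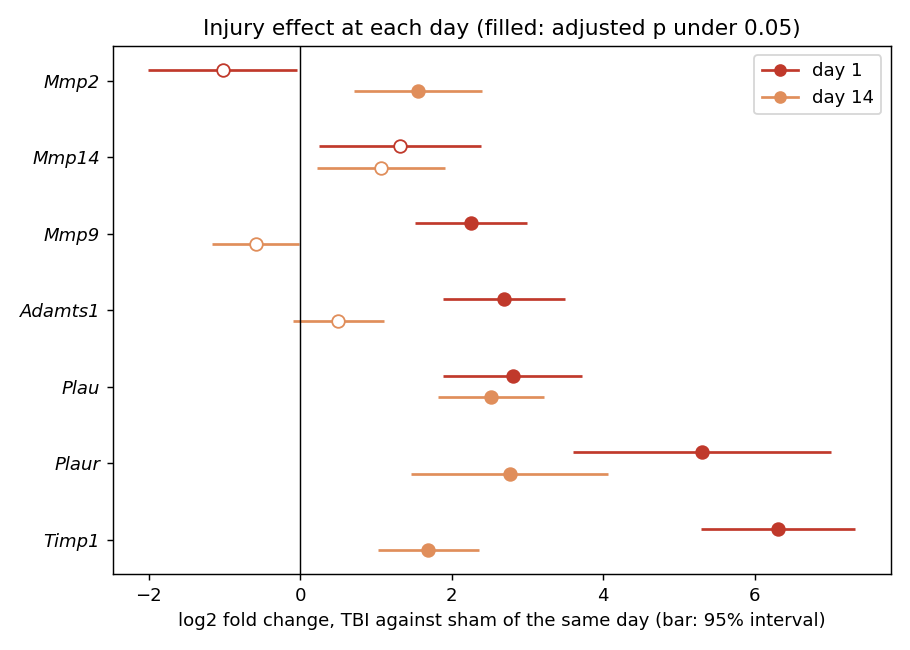
Log2 fold change of TBI against sham at day 1 and at day 14 for 7 genes, with 95% intervals from edgeR (points and horizontal lines, filled where the adjusted p was under 0.05). Mmp12, with 0 reads in all sham rats, and Mmp3, too low to be tested, are not drawn. Timp1 has the largest value drawn, 6.31 at day 1, and the intervals of Plau at both days lie above 0.

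The sham groups of the 2 days were compared because they serve as baselines. None of the 8 genes passed, counted as 0 by edgeR, by limma-voom and by DESeq2, while 19.1% of all tested genes passed by edgeR. Mmp12 could not pass, since it had 0 reads in every sham rat, and Plaur rested on 0 to 8 reads per sham rat. By edgeR 1 of 8 (Mmp2, p 0.0399) had an unadjusted p under 0.05. Against sham rats of day 14, 7 of the 8 genes were higher in TBI rats of day 1, all but Mmp2, beside 25.0% of all tested genes. In ranges of CPM, 6 of the 8 genes had every TBI rat above every sham rat at day 1, beside 16.7% of all tested genes. At day 14 it was 7 of the 8, all but Mmp9, beside 9.13%. Each of these counts of higher genes includes Mmp12 and Plaur, which were tested only through their reads in TBI rats.

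The rats of a group did not rank alike for all genes. TBI day 1 replicate 2 was the highest of its group for 5 of the 9 genes (Mmp3, Mmp9, Mmp14, Adamts1 and Timp1) and the lowest for Mmp2 and Plau. TBI day 14 replicate 4 was the highest for 6 of the 9 (Mmp9, Mmp12, Mmp14, Timp1, Plau and Plaur) and the lowest for none of them. Monocyte and macrophage markers were also highest in these libraries. Of that list 9 of 10 genes were in the table, 6 of 8 tested genes rose at day 1 and 2 at day 14, and Chi3l3 had 0 reads throughout. Its summed CPM, mostly Lyz2, was 260, 476, 455 and 350 in TBI rats at day 1 and 99.0, 69.5, 80.9 and 191 in TBI rats at day 14, against 54.1 to 70.7 in sham rats at day 1 and 36.8 to 45.2 at day 14. Summed CPM of the 12 microglial markers was 1013 to 1302 in TBI rats at day 1 and 1822, 1507, 1318 and 2370 at day 14, against 487 to 790 in sham rats. Of those 12, 6 rose and 2 fell at day 1, and 11 rose at day 14. Their part in the levels of Mmp12, Plau and Plaur was not tested.

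Other genes of the pathway were counted from 6 lists of 75 genes, of which 64 were in the table and 54 could be tested. At day 1, 15 rose and 5 fell, beside 11.2% and 7.93% of all tested genes, and the 20 calls became 11 without sham day 1 replicate 2. The median log2 fold change was 0.37. At day 14, 5 of the 54 rose, beside 4.07% of all tested genes, and the median was 0.04. The plot of day 1 against day 14 shows the genes named from these lists.

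**Figure D4:**
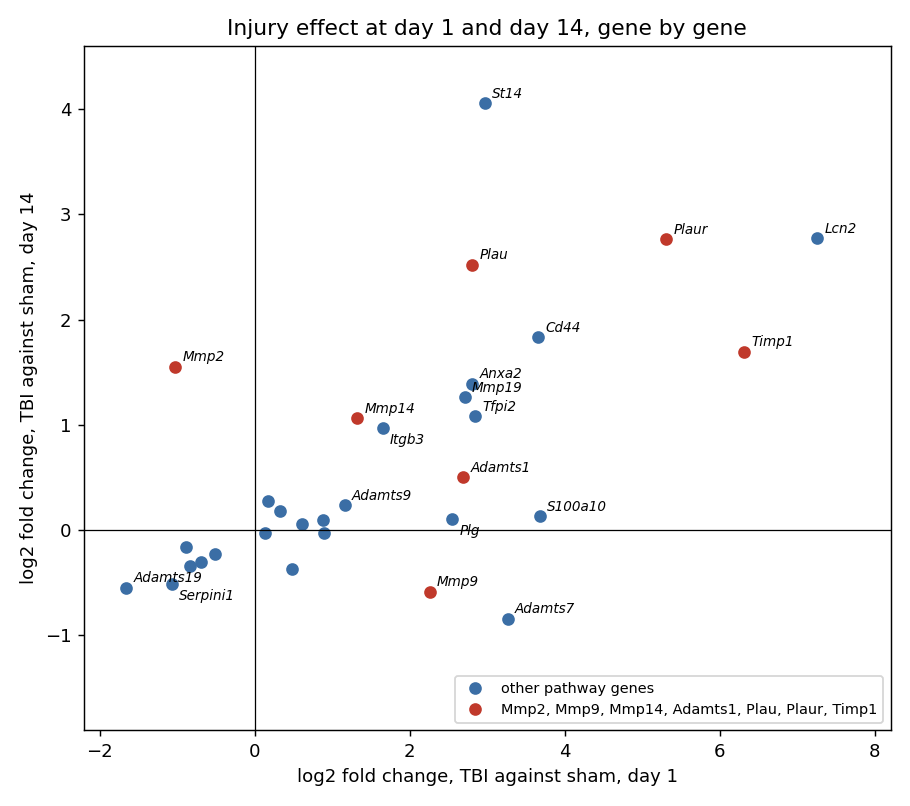
Log2 fold change of TBI against sham at day 1 (horizontal) and day 14 (vertical) for 7 of the 9 genes (red) and for 24 tested genes named from the pathway lists (blue). Genes beyond 1 on either axis are labelled. Lcn2 lies farthest right at 7.25, St14 is the highest at 4.06, and Mmp2 is the labelled point to the left of 0 and above it.

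In the plasminogen system, 6 of 16 tested genes rose and 2 fell at day 1. S100a10 and Anxa2, the subunits of a plasminogen receptor, rose by 3.68 (adjusted p 3.41e-07) and 2.80 (adjusted p 0.00167) at day 1. St14, which encodes the membrane protease matriptase, rose at both days, by 2.97 (adjusted p 0.00043) and 4.06 (adjusted p 9.1e-06), with 10.9 to 26.1 CPM in TBI rats at day 14 against 0.85 to 1.14 in sham rats. Anxa2 also rose at day 14, by 1.39 (adjusted p 0.0494), a call that 16 of 24 alternatives did not keep. Plg, plasminogen itself, rose by 2.55 at day 1 (adjusted p 0.0341), a call kept in 15 of 24 alternatives and lost without either sham rat of day 1 or TBI day 1 replicate 1 or 2. The serpin genes Serpine2 and Serpini1, the latter expressed mainly by neurons, fell at day 1, Serpine2 by 0.52 (adjusted p 0.0362, lost without sham day 1 replicate 1 or TBI day 1 replicate 2 or 3) and Serpini1 by 1.07 (adjusted p 0.0434). Serpini1 kept its call in 11 of 24 alternatives, and its log2 fold change was −0.40 (adjusted p 0.628) without sham day 1 replicate 2. Neuron markers were also lower at day 1, with 4 of 10 called and a summed CPM of 3493 to 7309 in TBI rats against 8084 and 11655 in sham rats, and their part in the serpin values was not tested. Plat, which encodes tissue plasminogen activator, gave 0.88 at day 1 (adjusted p 0.0552) and 0.09 at day 14 (adjusted p 0.947), and its day 1 value passed in 7 of 24 alternatives, among them the fit without sham day 1 replicate 1 (adjusted p 0.0468).

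Of 6 tested inhibitors other than Timp1, 1 rose at day 1, Tfpi2 by 2.84 (adjusted p 0.0145), from 0.37 and 0.59 CPM in sham rats to 1.30 to 6.70 CPM in TBI rats. The other tissue inhibitors gave 0.33 for Timp2 (adjusted p 0.397), 0.13 for Timp3 (adjusted p 0.808) and −0.70 for Timp4 (adjusted p 0.0538) at day 1, which passed without sham day 1 replicate 2 (−1.03, adjusted p 0.0286) or TBI day 1 replicate 1 (−0.86, adjusted p 0.0165). The signs of the Timp2 and Timp3 values turned without sham day 1 replicate 2. Reck, a membrane-anchored inhibitor, gave 0.48 (adjusted p 0.459).

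Of 8 other tested metalloproteases, Mmp19 rose at day 1, by 2.71 (adjusted p 3.5e-05), and at day 14, by 1.27 (adjusted p 0.00271), while Mmp17 fell at day 1 by 0.88 (adjusted p 0.0165). Of 12 other ADAMTS genes, Adamts7 rose by 3.26 at day 1 (adjusted p 0.00082), from 1.57 and 2.37 CPM to 8.06 to 34.2 CPM, and gave −0.84 at day 14 (adjusted p 0.386). Adamts9 rose by 1.16 (adjusted p 0.0480), a call kept in 8 of 24 alternatives that became 0.69 (adjusted p 0.264) without sham day 1 replicate 1, and Adamts19 fell by 1.66 (adjusted p 0.00773). Among 5 sheddases, which release proteins from the cell surface, Adam15 rose by 0.89 at day 1 (adjusted p 0.00218). The calls of Mmp17, Adamts19 and Adam15 were lost without sham day 1 replicate 2, as was that of Tfpi2.

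Of 7 activators and inducers, 4 rose at day 1 and 1 fell. Lcn2, whose product binds and stabilises MMP9, went from 1.43 and 4.90 CPM in sham rats to 310 to 637 CPM in TBI rats at day 1, a rise of 7.25 on the log2 scale (adjusted p 6.15e-06), and rose by 2.77 at day 14 (adjusted p 0.0020). Cd44, which encodes a hyaluronan receptor that can hold metalloproteases at the surface, rose by 3.66 (adjusted p 3.41e-05) and 1.84 (adjusted p 0.00104). Itgb3 and the convertase Furin rose by 1.65 (adjusted p 0.0212) and 0.61 (adjusted p 0.0116) at day 1, and the convertase Pcsk5 fell by 0.83 (adjusted p 0.00654). The calls of Itgb3, Furin and Pcsk5 were lost without sham day 1 replicate 2, and that of Itgb3 also without replicate 1.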

How the data were processed

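RNA-seq counts of 14 rats were used. The authors aligned 50-base single-end reads to rn5 with STAR 2.4.2a and made gene counts from UCSC gene models with featureCounts 1.5.0, per the study's methods and the submitters' processing notes, and deposited raw counts that are whole numbers without normalization. Libraries came from a stranded kit, but the strand setting of the counting was not given in the sources used here. Samples were grouped by their labels, as separate rats, and every column of the table was mapped.

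The main test was the quasi-likelihood test of edgeR 4.0.16, run in R 4.3.3 on all 14 samples with TMM scaling and a mean for each group, after genes with low counts in every group were dropped by filterByExpr. Its two-sided p-values were corrected (Benjamini-Hochberg) across 12875 genes, and 0.05 was the threshold. Intervals are 95%. A gene at 0 in a group was set to a floor of 3 reads per library. Alternatives were limma-voom (limma 3.58.1), DESeq2 1.42.0, median-of-ratios factors, no filter, an adjusted p under 0.01, the replicate block, fits to the compared groups alone, a choroid plexus covariate, leaving out the 3 choroid plexus libraries, all 6 sham rats as 1 baseline and leaving out each rat. On simulated counts for the day 1 comparison, edgeR recovered 174 of 200 changed genes with 13 false calls among 12734 tested. Replicates differed beyond counting noise in every group.

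The genes and the pathway and marker lists were chosen with earlier results of these data known, and the hippocampal markers were added after the counts were seen. Text names all 9 genes and, from each pathway list, up to 4 genes per day and direction with the largest change past the threshold and a mean log2 CPM above 0, plus all listed inhibitors, Plat, Plg, Serpine2 and Serpini1. A few genes meeting it are not reported here. H3K4me3 peak files were not used here, since gene positions on rn5 were not at hand. Promoters are RefSeq's on GRCr8. Figures were drawn with matplotlib 3.10.9.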

Additional observations from a re-analysis of the deposited data

Results flagged for a closer look

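A rat far from the others of its group was found in 3 of 98 groups of 4 rats and genes examined, where chance flags about 1 in 20. In sham rats at day 14, Mmp9 was lowest in replicate 3, whose gap to the next rat was 0.995 of the whole range on the log2 CPM scale. In TBI rats at day 14, the convertase gene Pcsk5 was highest in replicate 1 (gap 0.899 of the range) and Reck was highest in replicate 2 (gap 0.924 of the range).

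The injury effect differed between the days by the edgeR test of the difference in 4 of the 9 genes and in further genes of the pathway lists. Taken as day 1 minus day 14 on the log2 scale, the difference was 4.62 for Timp1, 2.84 for Mmp9, 2.18 for Adamts1 and −2.58 for Mmp2. It was 4.48 for Lcn2, 4.10 for Adamts7, 3.54 for S100a10, 1.82 for Cd44, 1.44 for Mmp19 and 0.91 for Adam15. The value for Mmp2 rested on sham day 1 replicate 1: without that rat it was −0.88 (adjusted p 0.261).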

How the results depend on the processing

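The day 1 group had 2 sham rats, 1 of them with choroid plexus RNA, which limits every day 1 value, above all those of Mmp2 and Mmp14. The day 1 log2 fold change ranged from 5.63 to 7.52 for Timp1 and from 2.23 to 3.34 for Adamts1 when a rat was left out. The counts of Mmp12, Mmp3 and Plaur in sham rats were too low to set a precise fold. When a sham rat of day 1 was left out, the other was assumed to vary like the other groups.

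Among the members called, day 1 gave 6 to 7 genes in every alternative. The day 14 count of 5 became 2 with limma-voom and 2 at an adjusted p under 0.01, and ranged from 2 to 6 when a rat was left out: 3 without TBI day 14 replicate 4, 3 without each of sham day 14 replicates 1, 2 and 4, and 2 without replicate 3. The members with a difference between days went from 4 to 2 at an adjusted p under 0.01. Of the members, 0 differed between sham groups, against 1 without the 3 choroid plexus libraries and 0 to 2 when a rat was left out (2 without sham day 1 replicate 2). The 20 other pathway genes called at day 1 became 9 with only the groups compared, 32 with all 6 sham rats as 1 baseline, 11 at an adjusted p under 0.01, and 11 to 23 when a rat was left out (11 without sham day 1 replicate 2). The 5 other pathway genes of day 14 became 9 with only the groups compared.

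Deviations of same-numbered rats had correlations of 0.13 and 0.07 in the day 1 pairs, and in those of day 14 of −0.04, 0.13, 0.24 and 0.12. As not every pair was above 0.1 and the labels name nothing shared, the numbers were not taken as pairs. With the replicate block, the members called were 6 at day 1, 4 at day 14, where Mmp12 was lost (adjusted p 0.0861), and 4 for the difference between days.

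Signs turned in these cases. For Mmp2 at day 1, −1.02 became 0.66 without the 3 choroid plexus libraries and ranged from −1.79 to 0.68 when a rat was left out. For the difference between days, Mmp14 ranged from −0.49 to 1.88 when a rat was left out, and Plau became −0.17 with the choroid plexus covariate and −0.24 without the 3 libraries. At day 14, Mmp17 became 0.085 and S100a10 −0.086 with all 6 sham rats as 1 baseline, and Adam15 became 0.065 without the 3 libraries, 0.014 with only the groups compared and 0.17 with all 6 sham rats (−0.087 to 0.049 when a rat was left out). Timp3 at day 14 became 0.0075 with only the groups compared. When a rat was left out, the range was −0.11 to 0.069 for Timp3, −0.033 to 0.13 for Furin, −0.030 to 0.26 for Plat and −0.063 to 0.49 for Plg at day 14, and −0.025 to 0.79 for Timp2, −0.43 to 1.03 for Timp3, −0.037 to 1.17 for Reck and −0.34 to 0.95 for Sparc at day 1. No turned value was past the threshold. The causes were not tested.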

Other observations

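For each tested gene, the genes with the most similar profile over the 14 rats were listed by the root mean square difference of centred log2 CPM. Timp1 was nearest to Sdc1 (0.48), then Hspb1 and Tubb6. Plau was nearest to Ptprc (0.37), then Ciita and Ifi30, and Plaur to Csf2rb (0.49), then Socs3 and Hk3. Adamts1 was nearest to Tnf (0.30), then Tagln2 and Gadd45g. Mmp9 was nearest to Akap12 (0.42), then Xdh and Fn1, and Mmp14 to Tsku (0.27), then Slc1a5 and Pik3ap1. Mmp12 was nearest to Lgals3 (0.81), then FAM187A and Hspb1. Mmp2 was nearest to Cldn19 (0.35), and Grxcr1 was also among its nearest. The rats fell into 4 groups, which all these profiles share, and no test was made.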
